A study of Mus musculus with 12 samples.

Results

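ATF4 and CHOP (gene Ddit3), the transcription factors of the integrated stress response, were followed through the acetylated chromatin regions of their own genes and of a small circle of genes that act with them. Regions of histone H3 acetylated at lysine 27 (H3K27ac) were kept where the deposited table gave their nearest gene as 1 of 10 names: Atf4, Ddit3, Atf3, Atf5, Cebpb, Cebpg, Trib3, Nupr1, Chac1 or Sesn2. This gave 26 of 36387 regions, of which 12 were annotated in the table as no more than 1 kb from a transcription start (promoter regions) and 14 lay elsewhere, under 8 of the 10 names. No region carried the names Atf4 or Cebpb, and Atf4 itself is not analysed here.

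The libraries came from mouse liver on day 2 after a 70% partial hepatectomy. All mice carried a floxed Cox10 allele, and Cox10 encodes an enzyme of heme A synthesis that cytochrome c oxidase needs. By the treatment protocol mice received Cre recombinase or GFP by AAV8, an adeno-associated virus that reaches the liver, injected 4 weeks before the operation. Cre is taken here to have gone to the Cox10-/- livers and GFP to those labelled wild-type, which the labels do not state for each sample. Each genotype had 3 H3K27ac libraries, and the 6 input libraries were not used. Whole liver was taken. The sources used here do not give the promoter that drove Cre, nor the age or sex of the mice. The labels do not say that each library came from its own animal, so the p-values measure the spread between libraries, which may be technical. Between libraries of a genotype the chi-square of reads per degree of freedom was 1.06 to 1.19, little above read sampling alone.

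In the integrated stress response, kinases that sense amino acid shortage, misfolded protein, heme shortage or viral RNA phosphorylate the translation factor eIF2alpha. General translation slows while the mRNA of ATF4 is translated more, and ATF4 then binds composite C/EBP-ATF elements with C/EBP partners to switch on amino acid synthesis and transport genes, CHOP and feedback inhibitors. Failure of the mitochondrial respiratory chain is a known trigger of this response in mammalian cells. H3K27ac marks active promoters and enhancers and is laid down by the acetyltransferases p300 and CBP.

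Promoter sequences are given for the genes on which the results turn, 3 that hold a composite element in the 250 bases before the start and Trib3, which does not hold these letters there. They are from RefSeq, build GRCm38.p6, read 5′ to 3′ on the strand of the gene, with a match to TGATGNAA on either strand in capitals.
Atf3, chr1:191183334-191183583, minus strand: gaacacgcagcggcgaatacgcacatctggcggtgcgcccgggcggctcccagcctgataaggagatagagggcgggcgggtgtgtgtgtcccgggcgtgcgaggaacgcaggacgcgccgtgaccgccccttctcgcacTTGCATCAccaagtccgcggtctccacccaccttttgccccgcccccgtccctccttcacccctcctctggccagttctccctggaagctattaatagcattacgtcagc
Nupr1, chr7:126625471-126625720, minus strand: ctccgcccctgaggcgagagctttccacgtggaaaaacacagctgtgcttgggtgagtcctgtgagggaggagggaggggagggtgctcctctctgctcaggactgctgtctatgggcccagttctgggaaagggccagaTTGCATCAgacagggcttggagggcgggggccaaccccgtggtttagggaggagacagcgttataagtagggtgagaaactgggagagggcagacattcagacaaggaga
Chac1, chr2:119350992-119351241, plus strand: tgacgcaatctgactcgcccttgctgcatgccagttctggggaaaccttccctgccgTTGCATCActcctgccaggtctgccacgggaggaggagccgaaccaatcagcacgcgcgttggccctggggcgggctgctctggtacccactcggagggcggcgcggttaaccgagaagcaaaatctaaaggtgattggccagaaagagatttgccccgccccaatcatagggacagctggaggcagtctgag
Trib3, chr2:152344061-152344310, minus strand: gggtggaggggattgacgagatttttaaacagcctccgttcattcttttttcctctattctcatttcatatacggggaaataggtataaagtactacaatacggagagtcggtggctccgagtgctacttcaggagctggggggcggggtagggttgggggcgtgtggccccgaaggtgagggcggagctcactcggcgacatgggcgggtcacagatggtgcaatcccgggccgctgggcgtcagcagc

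All 3 matches read TTGCATCA, that is, the element on the opposite strand. The element stood 110 to 103 bases before the start in both Atf3 and Nupr1, and 193 to 186 bases before it in Chac1. It was found in 3 of the 11 promoter windows of the 10 genes, and in 3.45% of the 32851 windows of that length in RefSeq. No window of the 10 genes held the cAMP response element TGACGTCA (1.55% of all windows) or the endoplasmic reticulum stress element (0.113%), each searched on both strands, and no match overlapped another motif. A match is a run of letters and does not show that a factor bound. The windows of Atf3, Nupr1 and Chac1 shared 0 bases with an acetylated region of the table, and that of Trib3 shared 125.

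The regions held 3302556, 3385453 and 3282878 reads in the Cox10-/- libraries and 4138459, 3897454 and 4187377 in the wild-type libraries. The deposited values are reads divided by 1 size factor per library, and size factors ran from 1.18 to 1.32 in Cox10-/- and from 0.730 to 0.782 in wild type. On this deposited scale the median change of all regions was -1.04 (log2, Cox10-/- over wild type), that of promoter regions -0.87 and that of other regions -1.28. The part of the size factors in this common shift was not tested. Spike-in chromatin was added by the protocols, and the sources used here do not say whether the size factors come from it. Every change is therefore given on the deposited scale and, where stated, on a centred scale. On the centred scale the median region of each library is set to the same value. Changes of regions are higher there than on the deposited scale by 1.05 (log2), and those of sums per gene name by 0.89. Promoters of the 5 hepatocyte markers Alb, Apoa1, Ttr, Tat and Hnf4a summed to between 1169 and 1395 normalised reads in Cox10-/- and to between 3758 and 3875 in wild type. All 5 were lower, where 93.8% of 9663 genes were lower at their promoter region of highest mean value. Of 5 markers each, macrophages had 1 promoter region (Cd68), biliary cells 1 (Sox9), and endothelial and stellate cells 0. The Cd68 region held 33.3 to 41.2 normalised reads in Cox10-/- and 33.3 to 53.4 in wild type, and Sox9 43.9 to 62.1 in Cox10-/- and 52.0 to 67.7 in wild type, neither of them called. The part of cell make-up in the changes was not tested. In whole liver, fewer cells of a type and less acetylation per cell cannot be told apart. Cox10 carried 1 region in an intron, 3.62-fold higher in Cox10-/-, which does not test the deletion.

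Trib3 and Nupr1 stood out from the other stress regulators. All 5 of their regions held more H3K27ac in Cox10-/- liver than in wild type, against a table in which most regions held less. Their promoter regions changed by 0.99 to 1.16 on the log2 scale, where the median promoter region changed by -0.87 and the median of all regions was -1.04. The promoter regions of Ddit3, Atf5 and Sesn2 and the inner one of Atf3 were lower on the deposited scale, each by less than the median region. For Atf5 the difference from the median region did not pass the test. The promoter regions of Cebpg and Chac1 did not pass the test on the deposited scale, and regions beyond the end of Chac1 were lower by most.

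Of the 26 regions, 14 were lower and 6 higher in Cox10-/- (limma, Benjamini-Hochberg adjusted p under 0.05), where 87.2% of all regions were lower and 4.46% higher. Among the 12 promoter regions, 4 were lower, 3 higher and 5 not called, where 92.3% of all promoter regions were lower and 1.26% higher. Among the 14 other regions, 10 were lower, 3 higher and 1 not called, where 83.2% of all other regions were lower and 6.96% higher. The median change was -0.21 over the 12 promoter regions and -1.06 over the 14 other regions (log2, Cox10-/- over wild type), against -0.87 and -1.28 over all regions of each class. By the 6 libraries alone, 14 of the 26 regions lay wholly below wild type in Cox10-/- and 6 wholly above, where 86.4% and 4.44% of all regions did. Of these, 5 of the 12 promoter regions lay wholly below and 3 wholly above, where 91.4% and 1.3% of all promoter regions did. The same held for 9 and 3 of the 14 other regions, where 82.6% and 6.9% of all did. By the adjusted p of the authors' deposited table, at the same threshold, 13 of the 26 regions were lower and 6 higher, where 84.8% of all regions were lower and 3.58% higher, and 25 of the 26 had the same call as here.

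Relative to the median region, 17 of the 26 regions were higher and 3 lower, where 33.6% of all regions were higher and 32.4% lower. By class, 11 of the 12 promoter regions were higher and 0 lower on the centred scale, where 42.2% of all promoter regions were higher and 18.9% lower. With the median promoter region of each library set to the same value instead, all but the Atf5 region were higher, 11 of 12. Of all promoter regions 27.7% were then higher and 25.7% lower. Of the 14 other regions 6 were higher and 3 lower on the centred scale, where 26.9% of all other regions were higher and 43.1% lower.

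**Figure D1:**
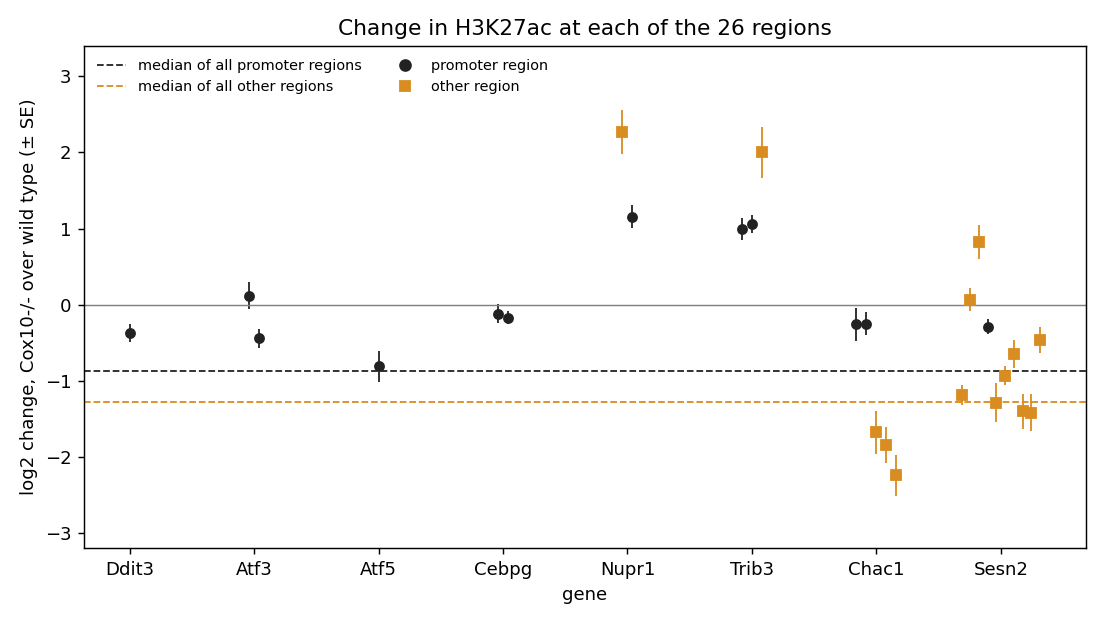
Change in H3K27ac (log2, Cox10-/- over wild type, deposited scale, limma estimate with its SE) for each of the 26 regions, grouped by gene, with dashed lines at the median of all promoter regions and of all other regions. The 5 regions of Trib3 and Nupr1 and 1 region of Sesn2 lie above 0 by several SE, and the lowest, at -2.24, is a region beyond the end of Chac1.

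Trib3 encodes a pseudokinase that ATF4 and CHOP induce and that in turn binds AKT and restrains ATF4 and CHOP. Its larger promoter region, on chromosome 2 from 152342643 to 152344026 (mm10, 1384 bases, just inside the gene), held 247, 217 and 188 normalised reads in Cox10-/- libraries and 117, 115 and 81.8 in wild-type libraries. The lowest Cox10-/- library lay above the highest wild-type library. It was 2.08-fold higher in Cox10-/- (log2 1.06, SE 0.12, limma adjusted p = 5.4e-16), and 65 of the 15980 promoter regions (0.407%) had a change as high or higher. A second promoter region lay on the other side of the start, from 152344186 to 152344991, and held 127, 112 and 124 normalised reads in Cox10-/- and 61.2, 53.4 and 67.7 in wild type. The groups were again apart, and the region was 1.99-fold higher in Cox10-/- (log2 0.99, SE 0.14, limma adjusted p = 1.1e-10). The gap between these regions holds the Trib3 start and 125 of the 250 bases printed above.

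The third Trib3 region, of 283 bases, lay in the last intron by the deposited annotation, from 152338775 to 152339057, 5144 bases into the gene. It held 50, 46 and 40 reads in Cox10-/- libraries and 5, 7 and 7 reads in wild-type libraries, which is 42.5, 37.1 and 30.3 normalised reads in Cox10-/- and 6.65, 9.59 and 8.95 in wild type. A few reads per library thus carry the wild-type level of this region. It was 4.01-fold higher in Cox10-/- (log2 2.00, SE 0.33, limma adjusted p = 1.2e-08), on log2(value + 1), which understates changes from low values. Only 172 of the 20407 other regions (0.843%) had a change as high or higher.

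Nupr1 encodes a small chromatin-associated protein that is induced by many cell stresses, ATF4 signalling among them. Its promoter region on chromosome 7, from 126624710 to 126625449, held 139, 107 and 114 normalised reads in Cox10-/- and 51.9, 60.3 and 47.3 in wild type. Every Cox10-/- library was well above every wild-type library, and the region was 2.23-fold higher (log2 1.16, SE 0.15, limma adjusted p = 6.7e-13). Of all promoter regions, 57 (0.357%) changed as much or more in this direction. RefSeq also places the long non-coding RNA Gm39087 over this region, and the reads do not tell the genes apart.

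A second region named for Nupr1 was intergenic, its centre -10939 bases from the Nupr1 start, from 126636203 to 126636615. It held 67, 56 and 69 reads in Cox10-/- and 9, 9 and 5 in wild type, or 56.9, 45.2 and 52.3 normalised reads in Cox10-/- and 12.0, 12.3 and 6.39 in wild type. Libraries of the genotypes were far apart, and the change of 4.81-fold was the largest increase of the 26 regions (log2 2.27, SE 0.29, limma adjusted p = 2.4e-13). It ranked 120th of the 20407 other regions. The table names such a region for its nearest gene, and its target gene is not known.

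**Figure D2:**
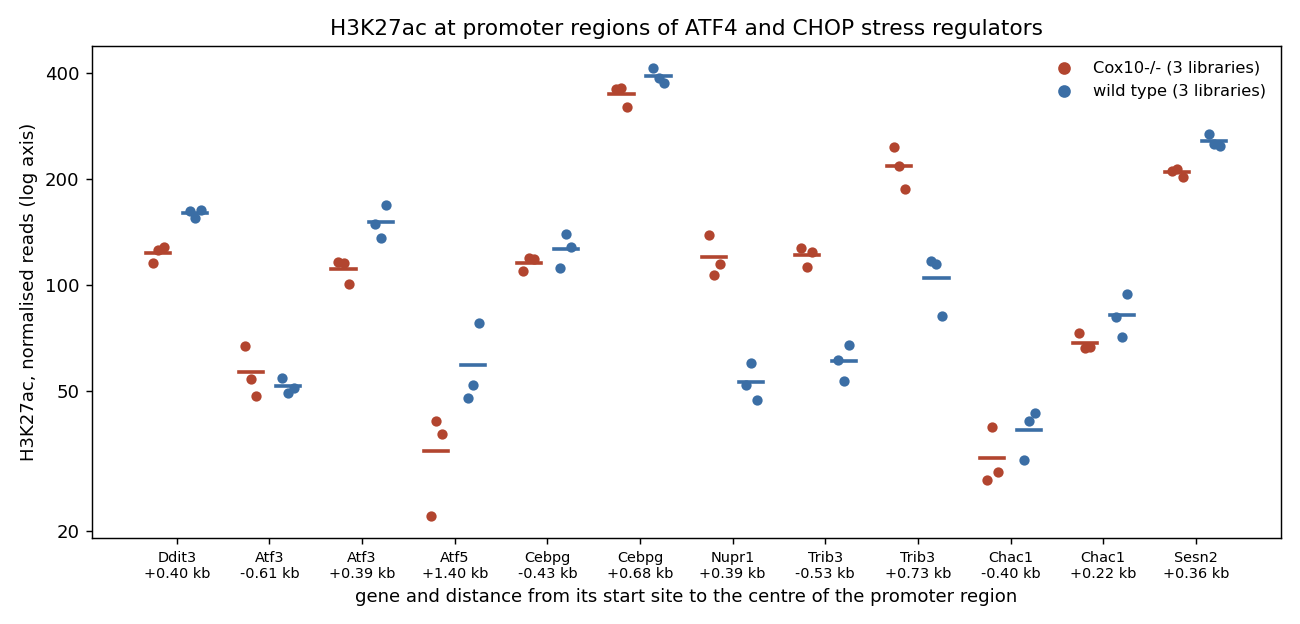
Normalised reads (log axis) in each library at the 12 promoter regions, labelled by gene and distance of the region's centre from the start, with Cox10-/- left of wild type, a point per library and a bar at the mean. The libraries of the genotypes are apart, with Cox10-/- above, at both Trib3 regions and at Nupr1, whose Cox10-/- libraries hold 107 to 139 normalised reads against 47.3 to 60.3 in wild type.

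Ddit3 encodes CHOP, the C/EBP-family factor that ATF4 induces and that is best known for promoting cell death under prolonged endoplasmic reticulum stress. Its promoter region on chromosome 10, from 127290826 to 127291566, held 116, 126 and 128 normalised reads in Cox10-/- and 162, 155 and 164 in wild type. Libraries of each genotype were close to each other and the groups did not overlap. Before division by the size factors the groups were apart in the other direction, with 136, 156 and 169 reads in Cox10-/- and 122, 113 and 128 in wild type. The region was 1.30-fold lower in Cox10-/- (log2 -0.38, SE 0.12, limma adjusted p = 0.0019), and relative to the median region it was higher by 0.67 on the log2 scale (limma adjusted p = 4.7e-08). In change, 9.66% of all promoter regions were as high or higher, so Ddit3 stood far less apart than Trib3 or Nupr1. The region also overlaps Mbd6 in RefSeq.

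The 3 genes whose promoter values were most like those of Ddit3, by Euclidean distance of log2 values over the 6 libraries among 9663 genes, were Acsl4 (0.120), Pgs1 (0.146) and Il17ra (0.181). Acsl4 averaged 122 normalised reads in Cox10-/- and 161 in wild type.

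Atf3 encodes a stress-induced bZIP factor that mostly represses transcription and is induced downstream of ATF4. Its promoter region inside the gene, on chromosome 1 from 191182665 to 191183223, held 116, 115 and 101 normalised reads in Cox10-/- and 149, 136 and 169 in wild type. The groups were apart, and the region was 1.36-fold lower in Cox10-/- (log2 -0.44, SE 0.12, limma adjusted p = 0.00048). Its whole reads were 137, 143 and 133 in Cox10-/- and 112, 99 and 132 in wild type, so it was lower only after division by the size factors. A region on the other side of the start, from 191183771 to 191184121, held 67.1, 54.1 and 48.5 normalised reads in Cox10-/- and 54.5, 49.3 and 51.1 in wild type. Here the groups overlapped and the change did not pass the test (log2 0.12, SE 0.18, limma adjusted p = 0.52). Without Cox10-/- library 1 it was -0.01. Relative to the median region both were higher, by 0.61 and 1.17. The sequence printed for Atf3 lies between these regions.

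Atf5 encodes a relative of ATF4 whose mRNA is translated under the same stress and which is linked to the mitochondrial unfolded protein response. Its only region under its name, on chromosome 7 from 44815116 to 44815405, was shallow, with 26, 51 and 50 reads in Cox10-/- and 36, 38 and 61 in wild type. The normalised reads were 22.1, 41.2 and 37.9 in Cox10-/- and 47.9, 52.0 and 78.0 in wild type, apart only after division by the size factors. It was 1.76-fold lower (log2 -0.81, SE 0.20, limma adjusted p = 9.3e-05) and did not differ from the median region by the test (centred log2 0.24, limma adjusted p = 0.29). Without Cox10-/- library 1 the centred value was 0.55 with a limma adjusted p of 0.0166. The first RefSeq start of Atf5 lay in a neighbouring region that the table names for Il4i1, from 44815855 to 44818178, outside the rule. This region held 526, 437 and 410 normalised reads in Cox10-/- and 757, 716 and 762 in wild type, a clear gap, and was 1.63-fold lower (log2 -0.71, SE 0.08, limma adjusted p = 2.6e-16).

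Cebpg encodes a C/EBP protein that pairs with ATF4. Its larger promoter region on chromosome 7, from 35055233 to 35056535, held 360.3, 362 and 321 normalised reads in Cox10-/- and 412, 388 and 376 in wild type. These do not overlap, while whole reads were apart in the other direction, 424, 449 and 424 in Cox10-/- and 310, 283 and 294 in wild type. The change missed the threshold (log2 -0.17, SE 0.09, limma adjusted p = 0.055). Without Cox10-/- library 1 it passed (log2 -0.20, limma adjusted p = 0.0426), and it also passed with the replicate number as a block (limma adjusted p = 0.0412). The second Cebpg region, from 35056720 to 35057265, held 109.6, 119 and 118 normalised reads in Cox10-/- and 112, 139.7 and 128 in wild type, with overlapping groups (log2 -0.12, limma adjusted p = 0.35). Relative to the median region both were higher, by 0.88 and 0.93 on the log2 scale.

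Cebpb encodes the C/EBP factor best known from the acute-phase response and from regenerating liver. No region carries its name, but the region that covers its RefSeq start and gene, on chromosome 2 from 167687878 to 167692641, is named in the table for Tmem189, whose RefSeq span ends 26.3 kb away. It lies outside the rule and is given for its place only. This broad region of 4764 bases held 1051, 1034 and 919.8 normalised reads in Cox10-/- and 1733, 1624 and 1557 in wild type. It was 1.64-fold lower in Cox10-/- (log2 -0.71, SE 0.06, limma adjusted p = 4.2e-22) and higher by 0.34 relative to the median region. The non-coding RNA A530013C23Rik overlaps it too.

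Chac1 encodes a glutathione-degrading enzyme and is a classic target of ATF4. Its promoter region inside the gene, on chromosome 2 from 119351269 to 119351653, held 73.1, 66.2 and 66.7 normalised reads in Cox10-/- and 81.1, 71.2 and 94.6 in wild type. The groups overlapped and the change missed the threshold (log2 -0.25, SE 0.15, limma adjusted p = 0.11). Without wild-type library 2 it was -0.35 with a limma adjusted p of 0.0448. The smaller region before the start, from 119350740 to 119350950, held 28.0, 39.5 and 29.5 normalised reads in Cox10-/- and 31.9, 41.1 and 43.5 in wild type, again with overlap (log2 -0.26, limma adjusted p = 0.26). Both were higher than the median region, by 0.80 and 0.79 on the log2 scale.

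3 intergenic regions named for Chac1 followed its end, starting 527, 1082 and 1683 bases beyond it. The farthest, from 119356009 to 119356220, held 17.0, 8.88 and 9.09 normalised reads in Cox10-/- and 78.5, 43.8 and 52.4 in wild type. It was 4.73-fold lower, the largest decrease of the 26 regions (log2 -2.24, SE 0.27, limma adjusted p = 2.4e-14). The middle region was 3.59-fold lower (limma adjusted p = 3.2e-13) and the nearest 3.20-fold lower (limma adjusted p = 2.1e-08). All 3 were also lower than the median region, by -1.19, -0.79 and -0.62 on the log2 scale. In change, 88.9%, 75.8% and 69.2% of all other regions were as high or higher, so regions with deeper losses were not rare. The call of the nearest (centred limma adjusted p = 0.044) was lost without Cox10-/- library 1 or 3 or wild-type library 1 or 3, with centred values from -0.35 to -0.67, and also with a pseudocount of 5 (log2 -0.44, limma adjusted p = 0.0873) and in DESeq2 (adjusted p = 0.0736).

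Sesn2 encodes sestrin 2, an ATF4 target that restrains the growth kinase complex mTORC1. It had 10 regions, the most of any member. Its promoter region on chromosome 4, from 132509729 to 132510454, held 211, 213 and 203 normalised reads in Cox10-/- and 269, 251 and 248 in wild type. The groups were apart, and it was 1.22-fold lower (log2 -0.29, SE 0.10, limma adjusted p = 0.0047) and higher than the median region by 0.76 on the log2 scale. Before division by the size factors its reads were higher in Cox10-/-, with 248, 264 and 268 against 202, 183 and 194 in wild type.

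3 intergenic regions before the Sesn2 start had unlike values within a stretch of less than 2 kb. The nearest, its centre at -3256 bases from the start, from 132513537 to 132513887, held 62.9, 42.0 and 40.2 normalised reads in Cox10-/- and 35.9, 26.02 and 19.2 in wild type. It was 1.78-fold higher in Cox10-/- (log2 0.83, SE 0.22, limma adjusted p = 0.00031), with no overlap of the groups. The middle one held 77.3, 70.2 and 72.7 in Cox10-/- and 71.8, 65.7 and 72.9 in wild type, which overlap (log2 0.07, limma adjusted p = 0.68). The farthest, from 132514992 to 132515471, held 86.7, 68.6 and 62.1 in Cox10-/- and 175.6, 149 and 170.0 in wild type and was 2.28-fold lower (log2 -1.19, SE 0.13, limma adjusted p = 2.9e-16). Against the median region the nearest and the middle one were higher, by 1.88 and 1.12 on the log2 scale. The farthest did not differ from it by the test (centred log2 -0.13, limma adjusted p = 0.32). The nearest region minus the farthest was -0.59 ± 0.12 on the log2 scale in Cox10-/- and -2.61 ± 0.43 in wild type (SD, n = 3 each). This difference of 2.02 was chosen after the values were seen, and an exact permutation test, two-sided, gave p = 0.1, the smallest that 3 against 3 libraries allow.

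All 6 Sesn2 regions in and beyond the end of the gene were lower in Cox10-/-, with log2 changes from -1.42 to -0.46, where 83.2% of all other regions were lower. On the centred scale 0 of the 9 Sesn2 regions outside the promoter were lower. The most distant region and that from 132491528 to 132491806 were higher there, by 0.59 and 0.40 (limma adjusted p = 0.0011 and 0.037). The second of these calls was lost in DESeq2 (adjusted p = 0.167). The broadest, in the 3′ UTR, held 117, 102 and 82.6 normalised reads in Cox10-/- and 222, 184 and 170.0 in wild type. It was 1.91-fold lower (log2 -0.93, SE 0.12, limma adjusted p = 1.2e-12) and did not differ from the median region by the test (centred log2 0.12, limma adjusted p = 0.32). The call of the most distant region (log2 -0.46, limma adjusted p = 0.0076) was lost without Cox10-/- library 3 (log2 -0.30) and without wild-type library 1 (log2 -0.38) or 2 (log2 -0.36).

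**Figure D3:**
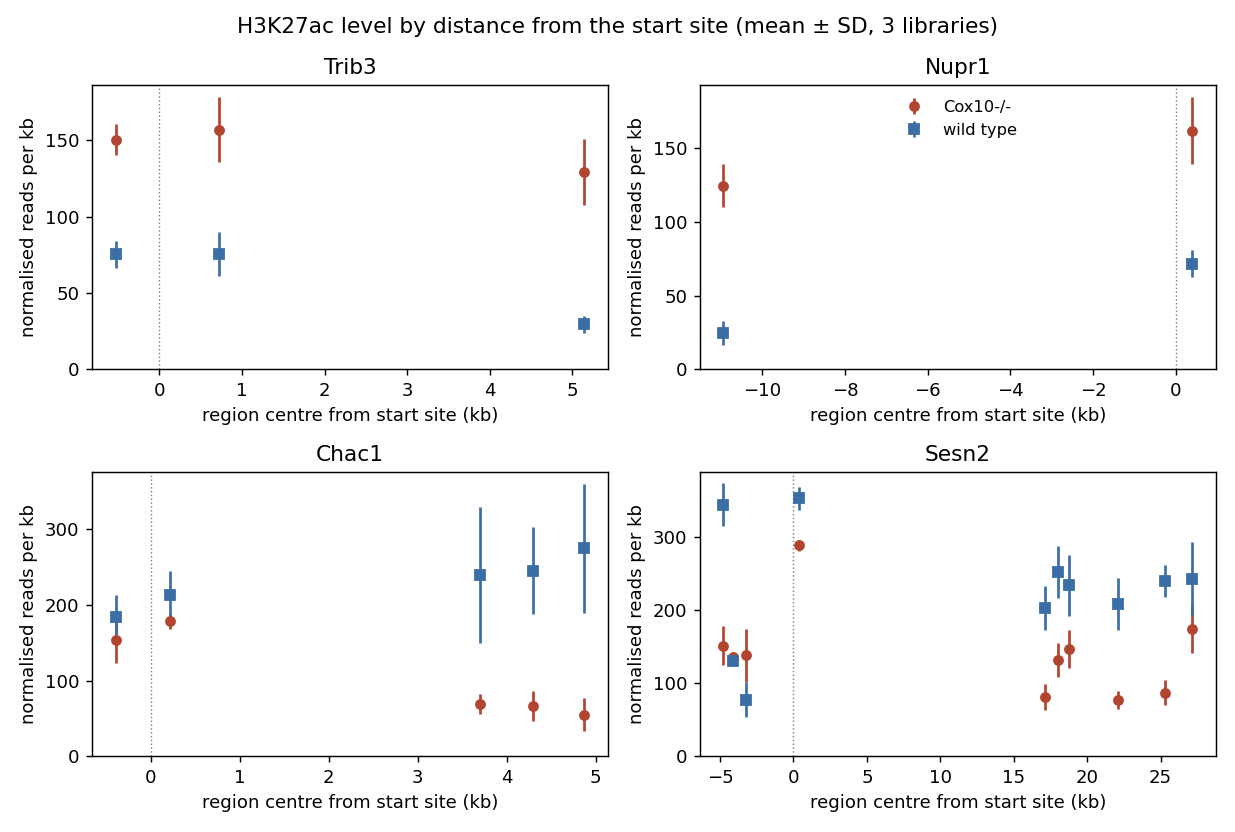
Mean normalised reads per kb of region (SD over 3 libraries) against distance of the region's centre from the RefSeq start of the gene, for Trib3, Nupr1, Chac1 and Sesn2, Cox10-/- and wild type. Cox10-/- lies above wild type at all regions of Trib3 and Nupr1 and below it at the regions past the end of Chac1.

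4 members had both promoter and other regions, and the contrast of these within a gene was compared between genotypes. Promoter minus other regions of Trib3 was 2.13 ± 0.15 on the log2 scale in Cox10-/- and 3.11 ± 0.33 in wild type, a difference of -0.98. In Nupr1 it was 1.20 ± 0.08 in Cox10-/- and 2.31 ± 0.35 in wild type, a difference of -1.11. In both genes the change away from the promoter was the larger one in value. In Chac1 the contrast was 1.75 ± 0.37 in Cox10-/- and 0.08 ± 0.52 in wild type, a difference of 1.67. In Sesn2 it was 2.32 ± 0.14 in Cox10-/- and 1.89 ± 0.10 in wild type, a difference of 0.43 (SD, n = 3 each). Each of these exact permutation tests, two-sided, gave p = 0.1, the smallest possible here, so none can pass 0.05.

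Per kb of region, the order of the promoter levels moved with genotype. In Cox10-/- Sesn2 (288 normalised reads per kb) and Cebpg (267) led and Atf5 (116) was last, while Ddit3 (166 ± 8.998), Nupr1 (162 ± 22.5) and Trib3 (157 ± 21.5) lay close together, within their spread (SD, n = 3). In wild type Sesn2 (352) and Cebpg (301) led too, Ddit3 held 216, and Trib3 (75.6) and Nupr1 (71.8) were last. The median of all promoter regions was 142 normalised reads per kb in Cox10-/- and 265 in wild type. Of the 12 regions 8, those of Trib3, Nupr1, Ddit3 and Chac1 and the second ones of Cebpg and Atf3, lay above the median promoter region in Cox10-/- and below it in wild type, as did 15.3% of all promoter regions. None of the 12 promoter regions held the RefSeq start of its own gene, and 1 (8.33%) held a start of another gene, where 18.9% of 15555 promoter regions held a start of some gene.

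Summed over all regions of a gene name, 2 of the 8 members were higher in Cox10-/- and 5 lower, where 2.02% of all 11240 gene names were higher and 92.7% lower. Nupr1 summed to 195, 152 and 167 normalised reads in Cox10-/- and 63.9, 72.6 and 53.7 in wild type, 2.68-fold higher. Trib3 summed to 417, 366 and 342 in Cox10-/- and 185, 178 and 158 in wild type, 2.15-fold higher. Chac1 was 2.00-fold lower and Sesn2 1.53-fold lower by their sums. Relative to the median gene name, 6 sums were higher and 0 lower, where 30.2% of all were higher and 33.1% lower. Cebpg missed the threshold (log2 -0.16, limma adjusted p = 0.052), and passed it with the replicate number as a block (limma adjusted p = 0.0383). The decrease of Atf3 (log2 -0.28, limma adjusted p = 0.0116) was lost without Cox10-/- library 3 (log2 -0.20) or wild-type library 3 (log2 -0.22), and with the mean log2 level over its regions in place of the sum (log2 -0.16, limma adjusted p = 0.161).

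The rest of the pathway was counted from 5 lists that leave out the members, each gene by its promoter region of highest mean value. On the deposited scale 93.8% of 9663 such genes were lower and 0.807% higher. After centring, 15.4% were lower and 49.2% higher. The median gene changed by -0.82 on the deposited scale.

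Of 34 targets of ATF4, 25 had a promoter region, of which 6 were higher, 11 lower and 8 not called in Cox10-/-, with a median of -0.22. On the centred scale 22 of the 25 were higher and 2 lower. The 6 higher on the deposited scale, named after their values were seen, were Asns, Slc7a1, Mthfd2, Mthfd1l, Aldh18a1 and Lonp1. Asns, which encodes asparagine synthetase, held 24.6, 29.1 and 29.5 normalised reads in Cox10-/- and 7.98, 8.22 and 7.67 in wild type, 3.20-fold higher, with 6 reads in each wild-type library. Slc7a1, a carrier of basic amino acids, held 69.7, 70.2 and 59.9 in Cox10-/- and 16.0, 12.3 and 29.4 in wild type, 3.55-fold higher. In both the groups were far apart. Mthfd2 and Mthfd1l, enzymes of mitochondrial folate metabolism, were 1.83-fold and 1.44-fold higher. Aldh18a1, of proline synthesis, was 1.60-fold higher, a call lost without Cox10-/- library 1 (log2 0.53, limma adjusted p = 0.102). Lonp1, a mitochondrial protease, held 199.7, 213 and 175 in Cox10-/- and 142, 136 and 123 in wild type, 1.46-fold higher. Ddit4, an inhibitor of mTORC1, was lower by -0.19 on the log2 scale (limma adjusted p = 0.0154, lost without wild-type library 3 at log2 -0.15). It was higher than the median region by 0.86. The 2 targets that were lower relative to the median region were Cth, of cysteine synthesis, 2.94-fold lower, and Slc38a2, an amino acid carrier, 2.46-fold lower.

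Of the eIF2alpha kinases upstream of ATF4 and their pathway, 14 of 16 had a promoter region and all 14 were lower, with a median of -0.90, and on the centred scale 6 were higher and 0 lower. Eif2s1, which encodes eIF2alpha, was 1.46-fold lower, but higher than the median region by 0.50 on the log2 scale. Ppp1r15a encodes GADD34, the phosphatase subunit that ends the response and a target of CHOP, and was 1.18-fold lower (log2 -0.24). It too was higher than the median region, by 0.81. Of 8 targets of CHOP, among them Ppp1r15a, Cars1 and Wars1, which stand in another list too, 7 had a promoter region, of which 5 were lower, 0 higher and 2 not called, with a median of -0.33. After centring, all 7 were higher. Ero1a, an oxidase of the endoplasmic reticulum, held 233, 228 and 211 normalised reads in Cox10-/- and 271, 219 and 244 in wild type, which overlap (log2 -0.12, limma adjusted p = 0.23). It was higher than the median region by 0.93.

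Of 23 bZIP partners 15 had a promoter region, and 14 were lower and 0 higher, with a median of -0.67. After centring, 12 were higher and 2 lower. Fosl2 and Mafk, subunits of AP-1-like dimers, were lower by 1.41-fold and 1.35-fold, but higher than the median region by 0.56 and 0.62 (log2). Cebpa, which maintains hepatocyte identity, was 2.47-fold lower and also lower than the median region, by -0.25. Of the 13 closest relatives of the members, which share Cebpa, Cebpd, Cebpe and Jdp2 with other lists, 11 had a promoter region, and 10 were lower, 0 higher and 1, Jdp2, not called (log2 -0.13, limma adjusted p = 0.42), with a median of -0.84. Relative to the median region 7 were higher and 2 lower. Trib1 was 1.86-fold lower and Nupr1l, the paralog of Nupr1, 1.65-fold lower, beside the increases of Trib3 and Nupr1. Trib1 and Nupr1l were higher than the median region, by 0.15 and 0.33 on the log2 scale. Both of these calls were lost when centred on promoter regions. Trib2 was 1.29-fold lower, a call lost without Cox10-/- library 2 (log2 -0.34) or 3 (log2 -0.25) or wild-type library 2 (log2 -0.28). Chac2, the constitutive relative of Chac1, was 2.83-fold lower. Sesn1 and Sesn3 were 1.87-fold and 2.36-fold lower, against 1.22-fold at the Sesn2 promoter. Neither Sesn1 nor Sesn3 differed from the median region by the test (centred log2 0.15 and -0.19). Atf1, Atf2 and Atf7 were 1.80-fold, 1.60-fold and 1.41-fold lower. The differences between members and relatives were not tested.

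**Figure D4:**
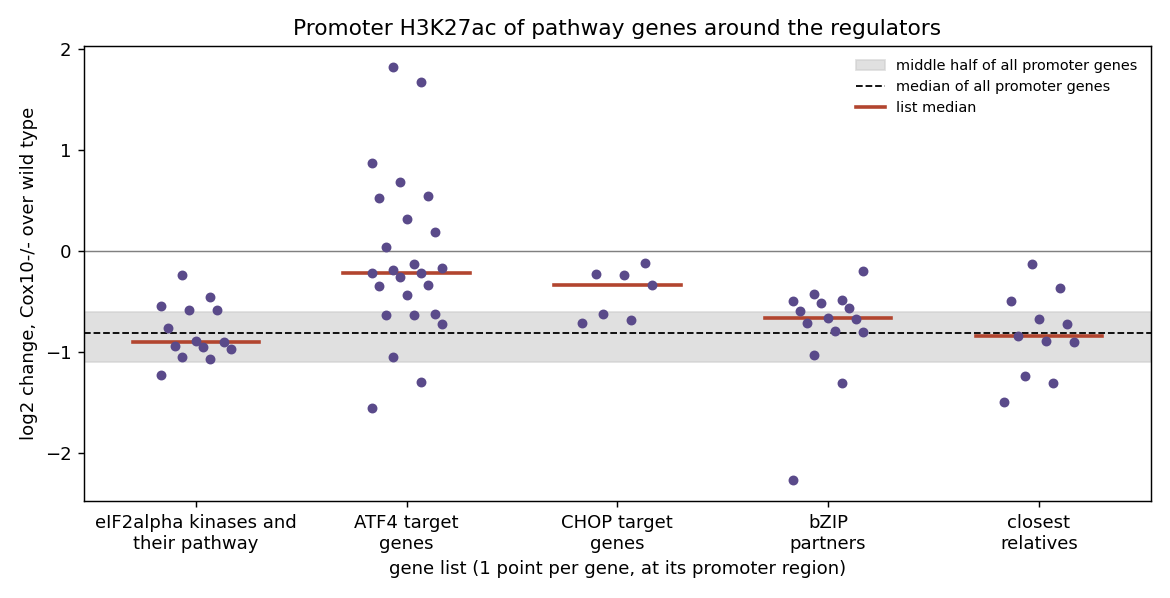
Change in H3K27ac at the promoter region of highest mean value (log2, Cox10-/- over wild type, deposited scale), a point per gene and a bar at the median for each of the 5 lists, with a dashed line at the median of all 9663 promoter genes and a band over their interquartile range. The ATF4 targets have a median of -0.22 and the eIF2alpha kinase pathway a median of -0.90, against -0.82 over all genes.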

How the data were processed

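H3K27ac was measured by chromatin immunoprecipitation and sequencing in 3 Cox10-/- and 3 wild-type libraries. Per the labels' protocols, sonicated liver chromatin was mixed with spike-in chromatin. Per the submitters' processing notes, which assign no roles, BWA 0.7.5, deepTools 3.5.0 and MACS were used with build mm10. The authors deposited a signal per region, in which each library's reads are scaled by its size factor. Multiplied back, 100% of values were whole reads within 0.01 reads. Their origin was not given in the sources used here. In addition, the authors also deposited log2 fold changes, p-values and a test score (log2 change over its error), of which calls only are quoted, and coordinates whose counting base is not stated. Of 36446 rows, 59 repeats were dropped, leaving 36387 regions on the X chromosome and 18 autosomes. Chromosome 16 is not analysed here.

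All regions were tested on log2(value + 1) with limma 3.58.1 (R 4.3.3), allowing a variance trend, without filter or block, and p-values were adjusted over all regions at a threshold of 0.05. Limma draws each variance towards a trend over all regions. The same fit was made after centring each library on its median region, and on sums per gene name. Regions away from promoters carry the nearest gene's name. Fits were tested on simulated data. Alternatives were pseudocounts of 0.5 and 5, a mean value of at least 20, an adjusted p under 0.01, a replicate block, leave-one-out fits, DESeq2 1.42.0 and edgeR 4.0.16 run on recovered reads, TMM scaling, repeated rows kept, promoters within 3 kb, mean log2 per gene and centring on promoter regions. Members, lists and tests were chosen with earlier results of these data known. All regions of each member are described. Of each list, up to 2 genes per direction were named by the smallest centred adjusted p, with every closest relative and the 3 genes nearest to Ddit3; 1 gene under this rule is not reported here. Deviations of libraries with 1 replicate number had correlations from -0.000917 to 0.00737. Spread within a genotype was little above read sampling (chi-square per degree of freedom 1.06 to 1.19). The check therefore cannot show whether the numbers pair the libraries.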

Additional observations from a re-analysis of the deposited data

How the results depend on the processing

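All 6 increases on the deposited scale (3 regions of Trib3, 2 of Nupr1 and the nearest upstream region of Sesn2) and the decrease of Ddit3 kept their direction and call under every alternative run on the deposited scale, and so did the sums of Trib3 and Nupr1. All of these alternatives used the same size factors, so they cannot show whether the decrease of Ddit3 depends on the scaling. Centred on the median region or the median promoter region, Ddit3 was higher (0.67 and 0.53). The number of member regions lower on the deposited scale lay between 13 and 15, and the number higher was 6 throughout. Of the values of single regions and genes, 1619 kept direction and call, 37 lost a call, 9 gained one and 7 changed sign. The sign changes were in values that were not called. Over the fits without 1 library, the upstream Atf3 region ran from -0.0112 (without Cox10-/- library 1) to 0.2195 and Jdp2 from -0.3244 to 0.0466 (without wild-type library 1) on the deposited scale. On the centred scale Sesn3 ran from -0.4125 to 0.1503 (without Cox10-/- library 1) and the Atf5 sum from -0.0730 to 0.3849, negative without Cox10-/- library 2 or 3 or wild-type library 1. The broad 3′ UTR region of Sesn2 was at -0.0251 when centred on promoter regions. Centred on promoter regions, 6 member regions were lower, against 3 as reported, 4 closest relatives higher, against 7, and 1 gene of the eIF2alpha pathway lower, against 0. With the mean over all regions of a gene, 1 CHOP target and 1 eIF2alpha pathway gene were higher on the deposited scale, against 0 each. On the centred scale that choice made 5 bZIP partners lower, against 2, 1 CHOP target, against 0, 4 closest relatives, against 2, and 2 eIF2alpha pathway genes, against 0. The causes of these moves were not tested. With the replicate number as a block, 15 member regions were lower, against 14, through Cebpg (limma adjusted p = 0.0412), and the block changed no other call of a member region on the deposited scale. DESeq2 left the most distant Sesn2 region (adjusted p = 0.0529), Aldh18a1 (0.0527) and Trib2 (0.0987) uncalled on the deposited scale, and, centred, the nearest region past Chac1 (0.0736), a Sesn2 region beyond its end (0.167), Atf1 (0.0915) and Nupr1l (0.165). A mean value of at least 20 left out Asns, so that 5 ATF4 targets were higher, against 6. Depth limits the small regions: the Trib3 intron region rests on 5 to 7 reads per wild-type library and the Asns promoter region on 6, and with 3 libraries per genotype no exact permutation test can go below 0.1.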
